A study of Homo sapiens with 4 samples.

Results

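Troponins are the calcium switch of striated muscle, and 10 genes of striated muscle, 7 of them troponin genes, were examined in cultures of HepG2, a widely used line of human hepatoma cells. The genes were TNNC1, TNNC2, TNNI1, TNNI2, TNNI3, TNNT1, TNNT2, ACTA1, SMPX and SMTNL2. A gene entered through probe sets of the array that the platform annotation assigns to that gene alone. By this rule 9 of the 10 genes had a probe set, each exactly 1, out of 54675 probe sets and 19775 genes in all; TNNT2 had none and was not analysed here.

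The study asked what depletion of the histone demethylase LSD1 (gene KDM1A) does in hepatoma cells, with cancer metabolism named in its title. HepG2 cells in medium with 25 mM glucose and 10% serum at about 50% confluence received small interfering RNA (siRNA), and RNA was taken after 4 days for Affymetrix HG-U133 Plus 2.0 arrays. The control group (2 arrays) received an siRNA against GL3, the name of a firefly luciferase reporter. The LSD1-KD group (2 arrays) received siRNA-1 against LSD1 on 1 array and siRNA-2 on the other. All 4 arrays share the cell line, the medium and the transfection, and no label says that they are separate cultures, so any p-value rests on array-to-array variation that may be technical.

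In a muscle fibre, troponin C binds calcium, troponin I blocks the contact of actin with myosin until calcium arrives, and troponin T ties the complex to tropomyosin along the thin filament. Troponin I and troponin T have separate genes for fast skeletal, slow skeletal and cardiac muscle, while slow skeletal and cardiac muscle share a troponin C gene. The troponin I and troponin T genes lie near each other in pairs in the genome. TNNI3 and TNNT1 are each other's nearest measured neighbour, while LAD1 lies between TNNT2 and TNNI1. LSD1 removes methyl groups from histone H3 and works within corepressor complexes, and it is known to take part in the switch from myoblast to muscle fibre. Hepatocytes are not known for a contractile apparatus of this kind.

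The values are RMA values, taken here as log2, from which the authors subtracted the median of the 4 arrays for each probe set. A value is therefore a distance from that median and not a level, levels of different genes cannot be compared, and the inner pair of the 4 values are mirror images by construction. Brightness was read only as a class, from the numeric step of the values: 8 or above, 4 to 8, or below 4 on the RMA scale, with the last called dim. The class is that of the array with the lowest value, so a gene that lay higher after knockdown can exceed it on the knockdown arrays. An array gives no counts, and the number of arrays limits the precision. The genes were chosen by their knockdown minus control differences, seen earlier in these same arrays. That difference is therefore given below as a description, with its standard error (SE, n = 2 arrays per group) and no test.

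KDM1A had control values of 1.23 and 1.17, against -1.55 for siRNA-1 and -1.17 for siRNA-2. The difference was -2.56 ± 0.16, a 5.91-fold lower signal, which did not pass (limma adjusted p = 0.0858 over all genes). Both arrays labelled as knockdown thus lay below both controls for the targeted gene. In the limma comparison of 2 arrays against 2, 1 gene of 19775 was called (0.00506% of genes), higher, and 2896 genes had an unadjusted p under 0.05. All 9 measured hepatocyte markers were in the brightest class. Of these, 8 lay above both controls on each knockdown array and 0 below, where 23.7% and 25.4% of all genes did so, among them ALB (0.94 ± 0.47), TTR (0.54 ± 0.23) and SERPINA1 (0.48 ± 0.11). The siRNA-2 array stood apart in spread: the SD of its values over all probe sets was 0.384, against 0.154 to 0.197 on the other arrays. Technical probe sets followed the same split of arrays. Hybridization spike-ins read -0.69 and -0.61 on the controls against 0.61 and 0.65 on the knockdown arrays, and the 5′ minus 3′ signal of ACTB was 0.34 and 0.23 on the controls against -0.26 and -0.38. Poly-A spike-ins differed less (0.26), as did the 5′ minus 3′ signal of GAPDH (-0.18). Their part in the differences below was not tested.

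Promoter sequences from RefSeq (GRCh38.p14) were matched for 5 of the 10 genes, and 4 are shown here because they set genes that lay higher on the knockdown arrays (ACTA1, SMPX, TNNT1) beside one that did not (TNNI3), whose gene is the neighbour of TNNT1. Each is the 250 bases before the transcription start on the minus strand, 5′ to 3′. Capitals mark exact matches, on either strand, to the CArG box bound by SRF, to the MEF2 site, or to CATTCC. The last is the core of the element bound by TEAD factors. The pattern was CCWWWWWWGG for the CArG box and YTAWWWWTAR for the MEF2 site. Here W is A or T, Y is C or T, and R is A or G. None of these matches overlap in the sequences shown.
ACTA1 (chr1:229434095-229434344): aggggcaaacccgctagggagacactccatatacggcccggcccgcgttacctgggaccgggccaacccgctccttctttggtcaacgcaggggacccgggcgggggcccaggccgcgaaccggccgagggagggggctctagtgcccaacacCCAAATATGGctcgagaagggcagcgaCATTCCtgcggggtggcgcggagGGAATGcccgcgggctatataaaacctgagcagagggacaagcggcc
SMPX (chrX:21758117-21758366): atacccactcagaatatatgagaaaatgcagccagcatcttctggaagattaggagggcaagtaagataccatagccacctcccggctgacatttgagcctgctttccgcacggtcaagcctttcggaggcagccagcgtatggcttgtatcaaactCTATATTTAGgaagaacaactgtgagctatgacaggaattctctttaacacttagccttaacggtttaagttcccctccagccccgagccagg
TNNT1 (chr19:55149207-55149456): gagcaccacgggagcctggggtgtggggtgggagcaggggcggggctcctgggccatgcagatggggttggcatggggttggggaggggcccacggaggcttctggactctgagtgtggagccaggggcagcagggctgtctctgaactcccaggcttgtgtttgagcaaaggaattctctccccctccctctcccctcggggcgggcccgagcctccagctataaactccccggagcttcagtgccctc
TNNI3 (chr19:55157733-55157982): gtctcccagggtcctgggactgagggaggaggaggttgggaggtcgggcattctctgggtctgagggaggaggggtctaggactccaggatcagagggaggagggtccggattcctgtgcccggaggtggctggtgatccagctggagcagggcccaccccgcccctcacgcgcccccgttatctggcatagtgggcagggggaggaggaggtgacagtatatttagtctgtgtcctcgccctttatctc

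The ACTA1 promoter held 1 exact CArG box, CCAAATATGG, from 97 to 88 bases before the start. Stretches 1 base off the pattern, such as ccatatacgg and ccttctttgg in ACTA1, were not counted. ACTA1 also held 2 matches to CATTCC at 70 to 65 and 47 to 42 bases, the nearer one on the opposite strand. SMPX held 1 MEF2 site, CTATATTTAG, from 93 to 84 bases before the start. TNNT1 and TNNI3 held no exact match to these motifs in this window. The E-box CANNTG, bound by myogenic helix-loop-helix factors among many others, occurred once in TNNT1 (CAGATG) and once in TNNI3 (CAGCTG), at 2 places in SMPX and at 0 in ACTA1. Of 35116 RefSeq promoters with the same window, 1.16% held a CArG box, 2.80% a MEF2 site, 11.9% a CATTCC and 61.8% an E-box. A match is a description of letters, and ACTA1, SMPX and TNNT1 shared no single one of these motifs. TNNC1, TNNC2 and SMTNL2, which also lay higher, had no matched promoter sequence and were not scanned.

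Both troponin C genes lay higher with each siRNA. TNNC2, the fast skeletal form, had control values of -1.28 and -1.48, against 1.28 for siRNA-1 and 1.39 for siRNA-2. The groups stood far apart and the arrays within each group close together: the difference was 2.71 ± 0.13, a 6.53-fold higher signal, 7th highest of the 19775 genes. TNNC1, the form of slow skeletal and cardiac muscle, read -0.59 and -0.51 on the controls, 1.38 with siRNA-1 and 0.51 with siRNA-2. Its controls agreed closely while the knockdown arrays differed, giving a difference of 1.50 ± 0.31, or 2.83-fold. Both probe sets fell in the class from 4 to 8.

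Of the troponin T genes, TNNT1, the slow skeletal form, read -0.57 and -0.35 on the controls, 0.35 with siRNA-1 and 1.68 with siRNA-2. All knockdown values lay above all control values, with a difference of 1.47 ± 0.47 (2.77-fold), the widest error among the 9 genes. The fast skeletal form TNNT3 is outside the set and was named because it is the remaining measured troponin gene. Its control values were 0.00 and -0.16 and its knockdown values 0.01 and 0.00, so its groups overlapped, with a difference of 0.09 ± 0.11 (limma adjusted p = 0.758). That reading comes from a single probe set, of the _x_at type, and any further TNNT3 probe sets were not examined.

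The troponin I genes did not share the higher values. TNNI1, the slow skeletal inhibitory subunit, read 0.07 and 0.17 on the controls, -0.08 with siRNA-1 and -0.07 with siRNA-2. Both knockdown values were slightly lower, by a difference of -0.19 ± 0.10, on a dim probe set. TNNI2, the fast skeletal form, read 0.02 on each control and -0.02 on each knockdown array, also on a dim probe set, and its difference of -0.04 ± 0.10 was smaller than its error. TNNI3, the cardiac form, read 0.05 on control 1 and 0.00 on each of the other arrays, a difference of -0.02 ± 0.10. Its deposited value was the same on 3 arrays, as for 96 probe sets in all (0.176%), so its spread and its brightness class carry little information.

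The other striated muscle genes of the set lay higher on both knockdown arrays. ACTA1 encodes skeletal muscle alpha actin, the core of the thin filament. It read -0.85 and -0.84 on the controls, 1.35 with siRNA-1 and 0.84 with siRNA-2, with a difference of 1.94 ± 0.20 (3.85-fold) in the brightest class. Actin genes have near-identical coding sequences, and whether the ACTA1 probes also match another actin was not checked here.

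SMPX encodes a small protein of striated muscle linked to the cytoskeleton at costameres. It read -0.65 and -0.67 on the controls, 0.65 with siRNA-1 and 0.94 with siRNA-2, with the groups clearly apart and a difference of 1.46 ± 0.14 (2.74-fold). SMTNL2, a smoothelin-like protein with a calponin homology domain, read -1.24 and -1.20 on the controls, 1.20 with siRNA-1 and 1.52 with siRNA-2. Its difference of 2.58 ± 0.15 (5.98-fold) was the nearest to that of TNNC2, and the pair could not be ordered beyond their errors. ACTA1 had the next highest difference, though its range of ± SE overlapped those of TNNC1 and TNNT1. TNNC1, TNNT1 and SMPX (1.50, 1.47 and 1.46) could not be ordered beyond their errors.

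**Figure D1:**
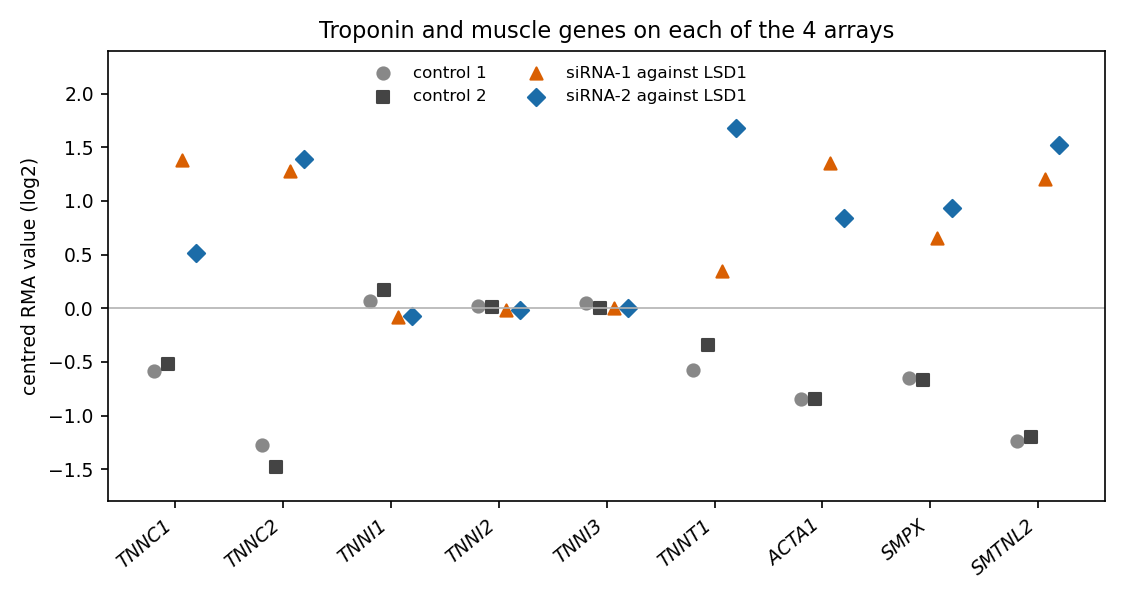
Centred RMA value (log2, vertical axis) of each of the 9 measured genes (horizontal axis) on the 4 arrays, 1 symbol per array. For TNNC1, TNNC2, TNNT1, ACTA1, SMPX and SMTNL2 both knockdown symbols lie above both control symbols, while the troponin I genes lie within 0.17 of 0 on every array.

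In all, 6 of the 9 genes lay above both controls on each knockdown array and 2 lay below, against 23.7% and 25.4% of all genes. A difference of 1 or more was seen upward for 6 of the 9 genes, against 1.69% of all genes, and downward for 0, against 0.738%. At least 2-fold higher values with each siRNA separately were seen for 5 of the 9 and for 0.673% of all genes, and 2-fold lower values for 0 and for 0.238%. The median difference was 1.47 over the 9 genes and 0.00 over all genes. These figures describe how the genes were chosen and are no evidence about them. Fewer cells that express a gene and less RNA per cell cannot be told apart in bulk RNA, and the same holds for more.

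Whether the siRNAs differed was not part of how the genes were chosen, and it was tested with limma over all genes with control, siRNA-1 and siRNA-2 as separate groups. Each siRNA has 1 array here, so the error was taken from the 2 controls and the knockdown arrays were assumed to share it. That assumption was not tested, the siRNA-2 array has the wider spread given above, and a call compares these 2 arrays rather than the siRNAs in general. At an adjusted p of 0.05, 7.01% of genes differed between the siRNAs, 4.12% higher and 2.90% lower with siRNA-2. Of the 9 genes 2 passed, and they lay on opposite sides. TNNT1 had the higher value with siRNA-2, by 1.33 ± 0.15 (limma adjusted p = 0.0487; 95% interval 0.85 to 1.81). Against the control mean that gene was 1.75-fold higher with siRNA-1 and 4.39-fold higher with siRNA-2.

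TNNC1 went the other way, with a difference of siRNA-2 minus siRNA-1 of -0.87 ± 0.09 (limma adjusted p = 0.0453; 95% interval -1.14 to -0.59). It was 3.82-fold higher than control with siRNA-1 and 2.09-fold higher with siRNA-2. ACTA1 had the same direction as TNNC1, at -0.51 ± 0.08, and did not pass (limma adjusted p = 0.0606; 4.60-fold with siRNA-1, 3.22-fold with siRNA-2). It passed in 3 of 6 other settings: with the mean of probe sets (0.045), without dim genes (0.0347) and with array medians subtracted (0.0408). The calls for TNNC1 and TNNT1 sat near the threshold: TNNC1 lost its call without _x_at and _s_at probe sets (adjusted p = 0.0535), TNNT1 with robust moderation (0.0526), and both when the arrays were quantile-normalized again (0.239 and 0.371), where the difference was -1.09 for TNNC1 and 0.49 for TNNT1.

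The remaining genes gave no call between the siRNAs. TNNC2 differed by 0.11 ± 0.14 (limma adjusted p = 0.619), with an interval from -0.33 to 0.56, and was 6.28-fold higher than control with siRNA-1 and 6.79-fold with siRNA-2. SMTNL2 differed by 0.32 ± 0.08 (limma adjusted p = 0.107; interval 0.07 to 0.57) and SMPX by 0.29 ± 0.08 (0.118; interval 0.04 to 0.53). The direction of all 3 turned when the arrays were quantile-normalized again, to -0.53 for TNNC2, -0.41 for SMTNL2 and -0.25 for SMPX. That setting acted on the centred values and gave all arrays the same distribution. By construction it narrows the siRNA-2 array, which has the widest spread. The troponin I genes differed by 0.01 or less, with intervals that reached at most 0.32 in size. An interval that holds 0 or a p above the threshold does not show that the siRNAs act alike. For KDM1A itself siRNA-2 minus siRNA-1 was 0.38 ± 0.08 (limma adjusted p = 0.0903).

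**Figure D2:**
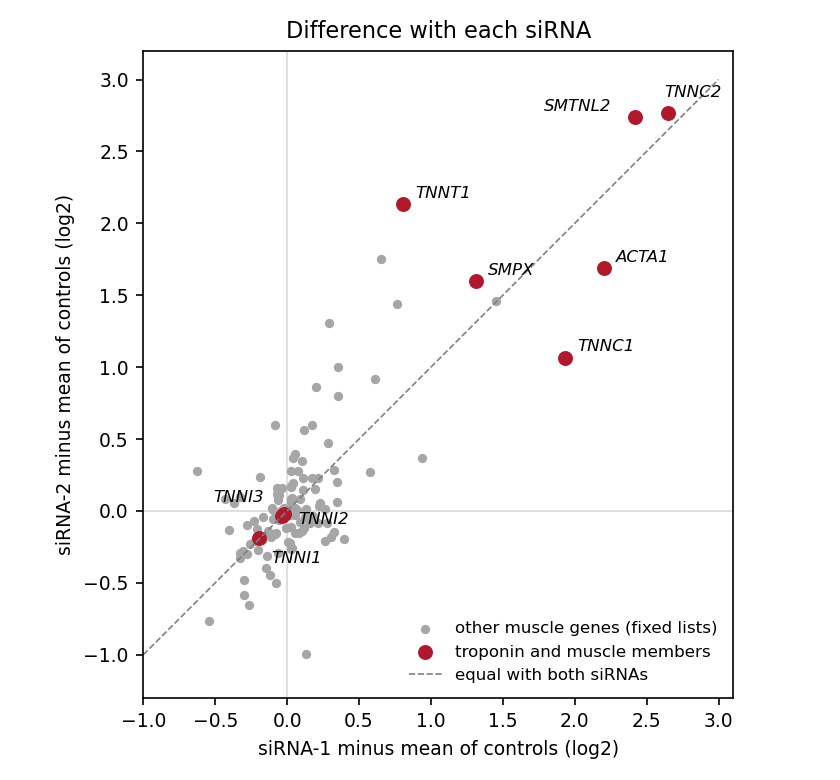
Difference from the mean of the controls with siRNA-1 (horizontal axis, log2) against siRNA-2 (vertical axis, log2) for the 9 genes (red) and 114 other muscle genes (grey). Of the 114, CCN1 (-1.18 with siRNA-1 and 0.30 with siRNA-2) lies outside the horizontal range and is not visible. The dashed line marks equal values. TNNT1 lies above the line (0.80 and 2.13), TNNC1 (1.93 and 1.07) and ACTA1 (2.20 and 1.69) below it, and TNNC2 (2.65 and 2.76) close to it.

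The rest of the muscle programme was read from lists holding 124 symbols of other muscle genes, of which 114 were measured. MYLPF, an earlier symbol of the measured gene MYL11, is among the symbols counted as not measured. In the comparison of 2 arrays against 2, limma called 0 of the 114 in either direction after adjustment over all genes (smallest adjusted p = 0.0943), and 18 had an unadjusted p under 0.05. Values beyond both controls on each knockdown array were seen for 26 above and 22 below, against the 23.7% and 25.4% of all genes given above, with a median difference of 0.02. A difference of 1 or more was seen for 3 of them, PFKM, CKM and ACTA2, and of -1 or less for 0. With siRNA-2 alone 11 passed higher and 4 lower (13.2% of the 114, against 24.0% of all genes, 13.6% higher and 10.4% lower). With siRNA-1 alone limma called 0 of the 114, of which 29 had an unadjusted p under 0.05. The same test called 0 of all genes, of which 5326 had an unadjusted p under 0.05.

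Among 17 measured genes of the thin filament, where troponins sit, 5 lay above both controls and 1 below, and the median was 0.04. ACTN2, an alpha actinin of the Z disc, had control values of -0.15 and -0.30 against 0.71 for siRNA-1 and 0.15 for siRNA-2 (0.65 ± 0.22). TMOD3, a cap of the slow end of actin filaments, had a difference of 0.22 ± 0.10, but 2 of its other probe sets lay lower with both siRNAs (-0.58 and -0.51 with siRNA-1, -0.28 and -0.66 with siRNA-2). ACTN3 had 0.18 ± 0.13 and the tropomyosin gene TPM1 -0.39 ± 0.12. Another probe set of TPM1 went the opposite way, at 0.58 with siRNA-1 and 1.04 with siRNA-2, while most of the rest lay lower with both. Cardiac actin, ACTC1, which the naming rule did not pick and is given beside ACTA1, overlapped between groups (0.06 ± 0.13).

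The 32 genes of the thick filament, Z disc and M band had 6 higher, 5 lower and a median of 0.03, and 18 were read by dim probe sets. The myosin-binding protein gene MYBPC1 had a difference of 0.76 ± 0.16, MYOM1 0.34 ± 0.18 and MYOM3 0.27 ± 0.14, the last a myomesin of the M band like MYOM1. CSRP3 (-0.31 ± 0.10), MYOZ2 (-0.28 ± 0.16) and MYL4 (-0.13 ± 0.10) were the lowest of those below both controls, though the 3 other probe sets of MYL4 lay higher with both siRNAs. None of these reached the test threshold.

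Calcium handling and energy genes of muscle (24 measured) had 7 higher, 6 lower and a median of -0.02. PFKM, the muscle phosphofructokinase, had control values of -0.83 and -0.69 against 0.69 for siRNA-1 and 0.70 for siRNA-2, which gives 1.46 ± 0.11. CKM, muscle creatine kinase, read -0.50 and -0.34 against 0.34 and 1.02 (1.10 ± 0.25). CHRNB1, a subunit of the muscle acetylcholine receptor, had 0.80 ± 0.36, while the calcium pump gene ATP2A2 had -0.29 ± 0.10, PGAM2 -0.29 ± 0.10 and the calcium release channel gene RYR1 -0.27 ± 0.13. Limma adjusted p ran from 0.0943 for PFKM upward.

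Of 22 transcription factors of muscle 2 lay above both controls and 8 below, and the median was -0.11. GATA4, which hepatic and cardiac cells both use, had 0.58 ± 0.18 and the SRF cofactor gene MRTFB 0.53 ± 0.25. No further MRTFB probe set lay higher with both siRNAs, and 2 dim ones lay lower with both. These read -0.33 and -0.45 with siRNA-1, and -0.80 and -0.01 with siRNA-2. VGLL3 had -0.66 ± 0.13, SIX4 -0.46 ± 0.16 and TBX5, on a dim probe set, -0.44 ± 0.16. Further probe sets, all dim, did not bear these directions out. They read 0.11 and 0.12 for VGLL3 and 0.01 and 0.08 for SIX4 (siRNA-1 and siRNA-2), and went both ways for TBX5. SRF, whose box stands in the ACTA1 promoter, was named for that reason after its values were seen; its control values of 0.05 and -0.05 overlapped with those of the knockdown arrays, -0.37 and 0.06.

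Smooth muscle and SRF target genes (19 measured) had 6 higher, 2 lower and a median of 0.04. ACTA2, the smooth muscle actin, read -0.35 and -0.32 on the controls, 0.32 with siRNA-1 and 1.41 with siRNA-2 (1.20 ± 0.39), but its 2 other probe sets stayed at -0.07 and -0.24 with siRNA-1 and -0.02 and 0.17 with siRNA-2. CNN1 had 0.42 ± 0.15, CALD1 0.39 ± 0.18, DES -0.19 ± 0.10 and TAGLN -0.08 ± 0.10. Over the genes named from these lists and the marker lists, 21 had further probe sets. Of those 65 probe sets, 30 went the same way as the chosen one with both siRNAs. ACTN2, ATP2A2 and CALD1 also had a further probe set that went the opposite way with both.

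**Figure D3:**
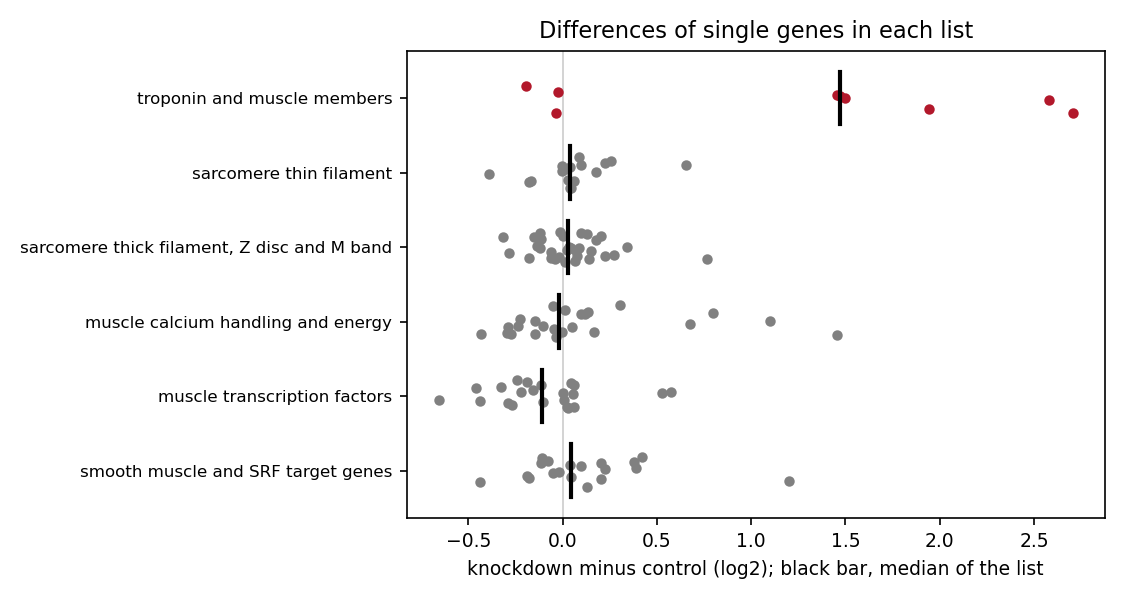
Difference knockdown minus control (horizontal axis, log2) of each gene, 1 point per gene, in the set of 9 and in the lists of other muscle genes (rows); black bars are medians. The set has its median at 1.47, while the other lists have medians from -0.11 to 0.04 with single genes, such as PFKM at 1.46, further out.

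Defining markers of other cell types were examined beside these values, and their part in the differences was not tested. Over all genes 23.7% lay above both controls and 25.4% below, the shares to set beside each of these lists. Of 7 skeletal myoblast markers 1 lay above both controls (CKM) and 3 below. Those below were DES and, on dim probe sets, MYF5 (-0.32 ± 0.11) and MYOG (-0.19 ± 0.12). The medians of the list were 0.10 and 0.00 on the controls against -0.07 and -0.04 on the knockdown arrays. Of 7 cardiomyocyte markers 1 lay higher (ACTN2) and 1 lower (RYR2, -0.14 ± 0.10, on a dim probe set). Of 6 fibroblast or stellate cell markers 2 lay higher, ACTA2 and COL1A1 (1.88 ± 0.54), and 1 lower, DCN (-0.27 ± 0.11); list medians were -0.09 and 0.04 on the controls, 0.00 with siRNA-1 and 0.42 with siRNA-2. For COL1A1 the chosen probe set was not matched by its 4 others, which read from -0.15 to 0.22 with siRNA-1 and from -0.27 to 0.66 with siRNA-2.

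The nearest measured genes on each side of the 10 genes numbered 17 outside the set. Above both controls lay 7 of these and below them 3, against 23.7% and 25.4% of all genes, with a median difference of 0.16 and a range from -0.36 to 1.22. TNNI3 stayed near 0 beside TNNT1, and on its other side DNAAF3 had 0.13 ± 0.12. PPP1R12C, on the far side of TNNT1, overlapped between groups (0.41 ± 0.32): it had -0.02 under siRNA-1 but 0.84 under siRNA-2. The genes beside TNNC1 were SEMA3G (-0.22 ± 0.14) and NISCH (0.21 ± 0.11), and those beside ACTA1 were CCSAP (0.05 ± 0.10) and NUP133 (0.39 ± 0.15).

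Beside SMTNL2, the non-coding RNA gene LINC01996 had the only difference of 1 or more among these neighbours. It read -0.32 and -0.60 on the controls, 0.32 with siRNA-1 and 1.19 with siRNA-2, a difference of 1.22 ± 0.33 on a dim probe set (limma adjusted p = 0.266). GGT6 on the other side had 0.23 ± 0.21 and overlapped. Beside TNNC2, UBE2C had -0.14 ± 0.10, and SNX21 had -0.01 with siRNA-1 and 1.27 with siRNA-2. SMPX stood between KLHL34 (0.13 ± 0.11) and MBTPS2 (0.29 ± 0.21).

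**Figure D4:**
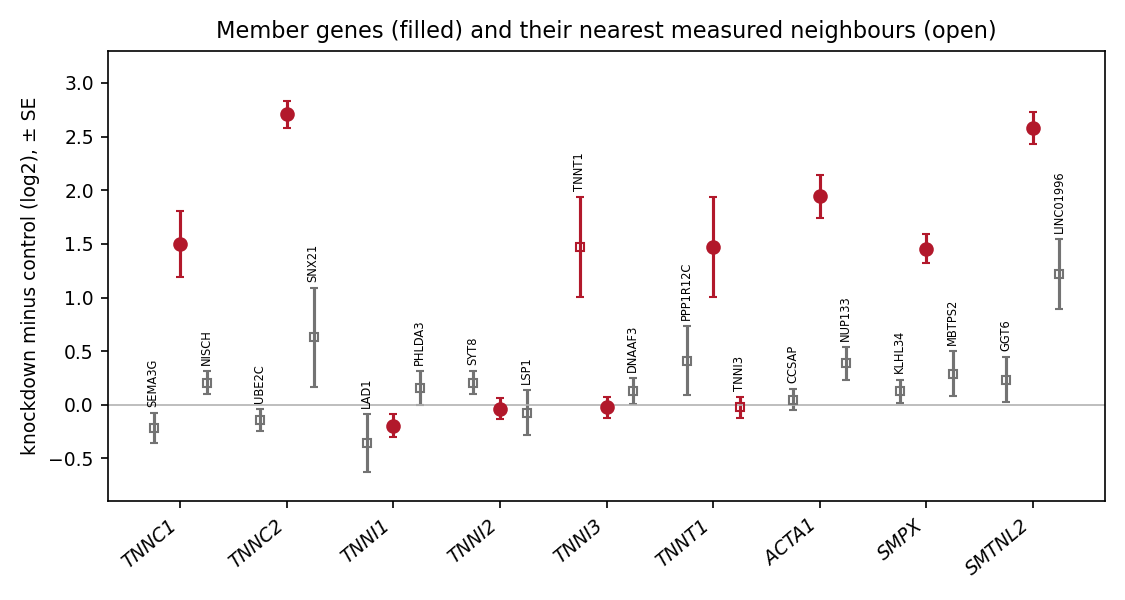
Difference knockdown minus control (vertical axis, log2, bars are ± SE) for each of the 9 genes (filled circles) and the nearest measured gene on each side (open squares, named; red where the neighbour is itself one of the 9). Outside the set, LINC01996 beside SMTNL2 is the highest at 1.22, and TNNI3 lies near 0 beside TNNT1 at 1.47.

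The genes whose values over the 4 arrays were most like those of a member were found by Euclidean distance over these arrays. The same values chose the members, so by construction the nearest genes have a similar knockdown minus control difference. For TNNC2 they were DIO1 (distance 0.21), the liver deiodinase gene, SLC30A10 (0.32), a manganese exporter gene, and SORBS2 (0.53). For SMTNL2 they were DIO1 (0.12), UPK3A (0.38) and SORBS2 (0.39), and TNNC2 and SMTNL2 themselves were 0.31 apart. ACTA1 was nearest to BEX1 (0.05), CCND2 (0.13) and BHMT (0.22), and TNNC1 to ANTXR1 (0.14), SMIM24 (0.18) and ODAM (0.26).

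TNNT1, with its higher value under siRNA-2, was nearest to EMB (0.18), HLA-DMA (0.20) and LEAP2 (0.21), and SMPX to TOX3 (0.09), P2RY8 (0.12) and DDR2 (0.13). TNNC1 was closer to ACTA1 (0.53) than to TNNC2 (1.47), and TNNC1 and TNNT1 were 1.57 apart. With 4 arrays such a distance describes these arrays only.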

How the data were processed

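Expression was measured on 4 arrays. Per the submitters' processing notes the authors used RMA; the deposited values are taken as log2, the base RMA gives, since none is stated. The values show that the authors also centred each probe set on its median over the arrays (largest deviation 5.0e-07). No source used here gives a software version, so none is named.

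Of 54675 probe sets, 41097 had 1 gene symbol, 1801 several and 11777 were unnamed here; symbols were updated through RefSeq (19734 of 19775 genes matched). Each gene took its brightest probe set, the class being read from the numeric step of single-precision values with a tolerance of 0.2 steps; about 22.2% of probe sets were at 8 or above, 37.7% from 4 to 8 and 39.9% below 4. Ties went to identifiers without a letter suffix.

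Differences were fitted with limma 3.58.1 in R 4.3.3 over all genes (two-sided, Benjamini-Hochberg, threshold 0.05; prior 2.33 degrees of freedom), 2 arrays against 2 without a block, and in a model with 3 groups for the siRNAs (prior 1.98 degrees of freedom). The fit was tested on simulated data. An exact permutation test of 2 against 2 cannot reach the threshold and was not used. Members, lists and tests were chosen with earlier results of these data known. All members and KDM1A were named; in each list, up to 3 highest and 3 lowest differences among genes beyond both controls; neighbours and the 3 nearest profiles of members with a difference of at least 1. Alternatives covered probe set choice, dim genes, normalization, moderation, the replicate block and leaving out arrays.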

Additional observations from a re-analysis of the deposited data

Results flagged for a closer look

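A limma test of siRNA-2 minus siRNA-1, with 1 array per siRNA and the spread of the controls, passed at an adjusted p under 0.05 for 2 members and 7 other genes of the muscle and marker lists. The muscle lists held 114 measured genes, and the marker lists 9, 7, 7 and 6, some of them shared. The same test called 7.01% of all genes, so these calls are listed singly and are no result about the lists. TNNC1 had -0.87 (1.93 with siRNA-1, 1.07 with siRNA-2, each against control; limma adjusted p = 0.0453). TNNT1 had 1.33 (0.80 and 2.13; 0.0487). The 7 others each had a limma adjusted p of 0.0425. ACTA2 had 1.09 (0.65 and 1.75), CHRNB1 1.02 (0.29 and 1.31) and COL1A1 1.56 (1.10 and 2.65). Another probe set of ACTA2 lay at -0.07 and -0.02, and another of COL1A1 at -0.15 and -0.22. The remaining genes, named for passing this test after their values were seen, had opposite signs with the siRNAs: CKMT2 -1.13 (0.13 and -0.99), CCN1 1.48 (-1.18 and 0.30), CCN2 0.90 (-0.63 and 0.27) and PDGFRB 1.80 (-1.18 and 0.63).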

How the results depend on the processing

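The 6 members with a difference of 1 or more stayed above 0 in all 58 recomputed values over 10 settings, between 0.80 and 2.81. Most of this was fixed in advance. Each member has 1 probe set, so settings of probe set choice, dim genes or the replicate block returned the same value or dropped the member. Leaving out 1 array cannot turn the sign where both knockdown values lie above both controls. Only the rescaling settings could have turned it, and the members were chosen by this difference. Members above both controls numbered 6, and 4 without _x_at and _s_at probe sets, where fewer members remain. Members below numbered 2, except 0 without dim genes, which leaves out TNNI1 and TNNI2, and 3 without control 2. Their median difference ran from 1.31 to 1.60 when 1 array was left out. The shift of the median of all genes was 0.01 under either rescaling.

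Counts over all genes depended on the setting. Genes called higher (1) became 0 with the mean of probe sets, without dim genes, with robust or no moderation and with the replicate block, and 275 after quantile normalization again; genes called lower (0) became 128 with the latter and 1 with no moderation. Leaving out 1 array gave 0 to 2689 genes higher and 0 to 2048 lower, the largest without the siRNA-1 array. Called genes for siRNA-1 (0) became 112 with the mean of probe sets, 290 without dim genes and 788 with array medians subtracted; for siRNA-2, 4737 became 0 after quantile normalization again. Between the siRNAs 1387 became 2108 with the mean of probe sets, 607 without _x_at and _s_at probe sets, 3379 without dim genes, 3303 with array medians subtracted and 0 after quantile normalization again. The latter also turned the sign of siRNA-2 minus siRNA-1 for TNNC2 (-0.53), SMPX (-0.25) and SMTNL2 (-0.41). Quantile normalization was applied here to the centred values and gives all arrays the same distribution, which by construction narrows the siRNA-2 array. How much of these changes comes from that was not tested.

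Of the muscle lists, 2 genes were called after quantile normalization again, and 0 to 15 when 1 array was left out. Beyond the controls were 37 to 47 higher and 33 to 41 lower with 1 array left out, where fewer values have to be passed, and 12 lower without dim genes. KDM1A passed after quantile normalization again (-3.05, adjusted p = 0.0339) and without the siRNA-1 array (-2.37, 0.0158), ran from -2.75 to -2.37 with 1 array left out, and had limma adjusted p up to 0.999 over 11 settings. With the replicate block KDM1A kept -2.56 (adjusted p = 0.435). The LSD1-KD numbers name siRNAs, and no label states a pairing of arrays. The correlation of the differences between numbered arrays was 0.03 across genes. Because the knockdown arrays also differ by siRNA, this value cannot decide whether arrays were paired. The siRNA contrasts could not be fitted without a control array, which leaves no spread.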
